A study of Arabidopsis thaliana with 9 samples.

Results

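PRC2, the Polycomb complex that places the repressive mark H3K27me3 on genes, was reduced in Arabidopsis seedlings by RNAi against FIE (siFIE) or by mutation of CLF and SWN, and the genes described here are those raised in siFIE only. In seedlings the complex is known for keeping floral, seed and other developmental regulators off. They are the 116 of 30361 array genes whose mean log2 signal was more than 2 above wildtype in siFIE, within 1 of wildtype in the clf swn double mutant, and above 8 in siFIE. A difference of 2 on the log2 scale is 4-fold, and a level of 8 is a linear signal of 256. These measured limits chose the genes, so their differences between siFIE, Col and clf swn are given as a description and without a test. The rule left out 3 loci by name (AT1G65480, AT1G02580 and AT1G61120), of which 2 met the limits, so that 118 genes met them in all. A total of 404 genes passed the siFIE limits whatever their value in clf swn, and 215 were above the same limits in siFIE and more than 4-fold above Col in clf swn.

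Total RNA of whole seedlings grown for 12 days on agar plates was measured on 9 NimbleGen arrays of 60-mer probes, 3 for each genotype, each from a pool of 10 to 12 plants. The genotypes were wildtype Col, siFIE, which are T1 plants carrying RNAi directed at FIE, selected on kanamycin and taken for an intermediate phenotype, and clf swn, which is mutant in the methyltransferase genes CLF and SWN and sterile, so that its plants were picked from a segregating progeny. The alleles stand in the labels as clf-7 swn-28 and, for the growth of the plants, as swn-7 clf-28. The labels place siFIE in C24 and the methods in Col, every wildtype array was Col, and so the RNAi construct, the ecotype, the kanamycin plates and the choice of plants cannot be told apart in siFIE. Each T1 plant is a separate transformant, so that the plants of a pool can differ in silencing.

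FIE is a WD40 protein found in every PRC2 complex of Arabidopsis, whereas CLF and SWN are alternative catalytic subunits, with a further one, MEA, acting mainly in the seed. FIE RNA gave 1976, 1768 and 1786 in Col, 244, 281 and 321 in siFIE and 3392, 3249 and 3349 in clf swn, so that siFIE and Col did not overlap. SWN gave 11186, 11516 and 11643 in Col, 11743, 11524 and 12247 in siFIE and 179.8, 392 and 118 in clf swn, and CLF was likewise low only in clf swn (3744, 4447 and 3852 against 11774, 12348 and 10798 in Col). The median signal per array was 1116 to 1169, and arrays of the same genotype correlated across genes at r of 0.991 to 0.994 (genes are not independent replicates), those of different genotypes at 0.915 to 0.978. Some lists of tissue markers moved in both mutants, while others hardly moved in siFIE. Of 22 floral organ identity genes 16 rose in siFIE and 18 in clf swn, of 11 seed markers 7 and 11, and of 8 shoot meristem markers 3 and 7. Of 6 leaf markers 1 fell in siFIE and 5 in clf swn. In siFIE 0 of 20 anther and pollen markers rose and 1 fell, of 10 root markers 0 and 1, and of 9 endosperm markers 0 and 0. In clf swn the same lists had 1 up and 3 down, 1 and 6, and 1 and 0. Of all genes 4.51% were up in siFIE, and in clf swn 8.78% were up and 12.8% down. The summed signal of the leaf markers was 220356 to 222607 in Col, 155513 to 170479 in siFIE and 62390.5 to 66690.1 in clf swn, and that of the seed markers 909.7 to 1049.7, 4740.7 to 8132.7 and 340662 to 368459. None of these markers is among the 116 genes, and the part of the changed tissue makeup in their values was not tested. In whole seedlings fewer cells of a type and less RNA per cell cannot be told apart.

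The median of the members' mean signals was 152 in Col, 1228 in siFIE and 186 in clf swn. Brightness depends on the probe as well as on the RNA, so that levels of different genes are not set against each other. Of the members, 39 were under 100 in Col, 63 between 100 and 1000 and 14 above 1000. The log2 difference of siFIE from Col had a median of 2.56, which is 5.91-fold, and ran from 2.01 to 5.14, with 34 genes over 8-fold and 15 over 16-fold. In clf swn the median difference from Col was 0.19, with 77 genes above and 39 below Col and 72 within 0.5. By limma across all genes (adjusted p under 0.05 and more than 2-fold), 115 of the 116 genes were called up in siFIE, where 4.51% of all genes were, and none in clf swn, where 8.78% of all genes were called up and 12.8% down. The rule used these contrasts, so nothing is read from the counts. All siFIE pools were above all Col pools for 114 genes, against 18.4% of all genes, and above all clf swn pools for 115, against 24.6%.

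**Figure D1:**
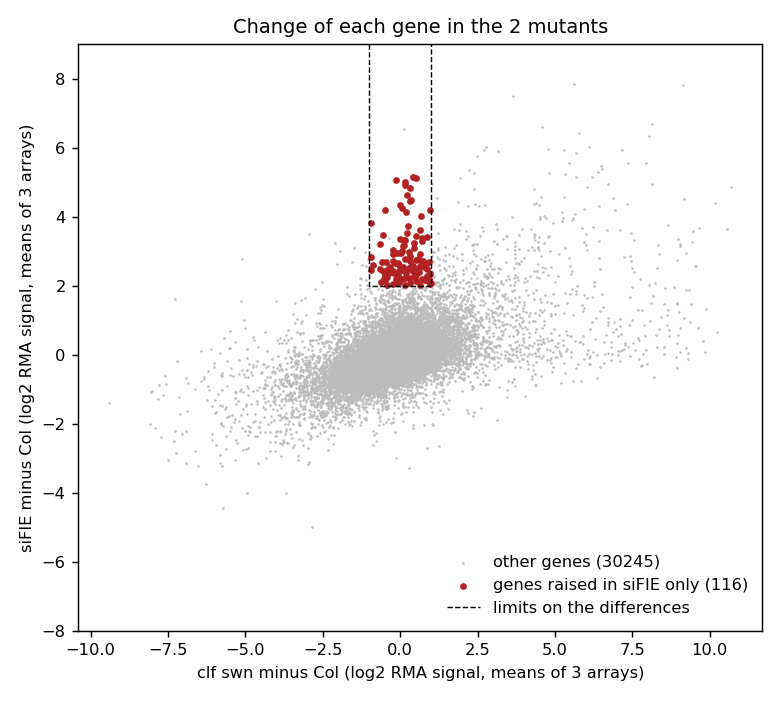
Each point is 1 gene, placed by its log2 difference from Col in clf swn (x axis) and in siFIE (y axis), each from the means of 3 arrays. Red points are the 116 genes raised in siFIE only, dashed lines are the limits of 2 in siFIE and 1 in clf swn, and grey points between the lines are the 2 loci left out and genes whose siFIE level was 8 or less.

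The strongest change was that of AT1G11070, a locus without a symbol, with a signal of 187, 187 and 219 in Col, 7642, 5862 and 7555 in siFIE and 252, 337 and 208 in clf swn. Its siFIE pools lay 35.3-fold above Col (log2 5.14), and both of its probes rose by at least 3.79 on the log2 scale before background correction. Other loci without a symbol followed. AT1G70680 gave 32.9, 48.4 and 38.2 in Col, 1086, 971 and 1362 in siFIE and 41.4, 40.96 and 67.5 in clf swn, or 28.7-fold. The signal of AT4G19430 was 73.97, 109 and 64.03 in Col, 2575, 1395 and 2222 in siFIE and 118, 78.6 and 88.7 in clf swn, or 24.9-fold. For AT1G10585 it was 62.7, 64.6 and 59.6 in Col, 1319, 1196 and 1075 in siFIE and 60.3, 37.2 and 122 in clf swn, or 19.2-fold. In each of these loci every siFIE pool was above every other pool. AT3G59845 gave 43.3, 30.05 and 30.3 in Col, 481, 849 and 577 in siFIE and 25.7, 23.5 and 23.8 in clf swn, or 18.1-fold. For AT4G33720 the signal was 83.4, 165 and 185 in Col, 3039, 2164 and 2073 in siFIE and 175, 141 and 156 in clf swn, or 17.5-fold. That of AT4G00870 was 119, 137 and 104 in Col, 1103, 1683 and 1626 in siFIE and 164, 182 and 214 in clf swn, or 12.1-fold. These 3 loci did not overlap between siFIE and the other genotypes either. The other loci without a symbol among the 30 largest changes were AT1G12540 (10.5-fold), AT3G43250 (9.97-fold) and AT3G53600 (9.05-fold). In all, 64 of the 116 genes have a symbol in the RefSeq annotation of TAIR10.1 and 52 are known by locus only, 1 of which, AT1G51280, is not in that annotation.

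Genes of the volatile terpenes stood among the largest changes. Jasmonate and wounding are known to induce this branch, in which plastid and cytosolic prenyl precursors are turned by terpene synthases and a cytochrome P450 into the mixture that leaves give off after attack by insects. CYP82G1, the P450 that makes the homoterpenes of that mixture, gave 39.3, 30.4 and 29.3 in Col, 744, 1789 and 965 in siFIE and 24.9, 27.9 and 36.97 in clf swn, a 33.2-fold difference of siFIE from Col. DXPS1, of the deoxyxylulose phosphate synthase family that starts the plastid precursor pathway, gave 32.7, 36.9 and 33.9 in Col, 953, 1735 and 829 in siFIE and 24.9, 43.4 and 52.00 in clf swn, or 32.2-fold. TPS10, a monoterpene synthase, gave 37.6, 37.00 and 23.97 in Col, 401, 608 and 317 in siFIE and 51.3, 30.2 and 37.3 in clf swn, or 13.2-fold. For all of these genes the siFIE pools were far above Col and clf swn, which overlapped. The size of these folds depends on the processing. From probe signals with normexp background and quantile normalization the folds were 9.83 for CYP82G1, 10.2 for DXPS1 and 3.86 for TPS10, and without background correction 5.19, 5.89 and 2.41.

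Genes of the jasmonate response formed a further set, made of repressors and of a late response gene. JAZ proteins are repressors that jasmonate removes and whose own genes it induces, and TAT3 is a tyrosine aminotransferase gene induced by jasmonate. JAZ5 gave 1116, 1541 and 1164 in Col, 7084, 12208 and 12747 in siFIE and 1143, 1081 and 1011 in clf swn, or 8.20-fold. The signal of JAZ7 was 57.5, 189 and 116 in Col, 238, 1056 and 889 in siFIE and 118, 78.9 and 139 in clf swn, or 5.61-fold. That of JAZ8 was 27.3, 60.3 and 42.2 in Col, 165, 387 and 461 in siFIE and 83.4, 45.2 and 70.7 in clf swn, or 7.52-fold. The siFIE pools of these repressor genes were above all Col and clf swn pools. TAT3 gave 93.7, 66.1 and 80.3 in Col, 885, 3242 and 1816 in siFIE and 63.8, 141 and 106 in clf swn, or 21.9-fold, again without overlap. The first siFIE pool was the lowest of the siFIE pools for all of these genes. JAZ8 was measured with probes that disagreed, rising by 0.24 and 2.48 on the log2 scale before background correction at the extremes.

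The wider pathway was followed with a list of 18 jasmonate and terpene genes, 4 of them members (JAZ5, JAZ7, TPS10 and CYP82G1), so that its count is not independent of the rule. Of the 18, 12 were called up and 0 down in siFIE, and 3 were called up and 3 down in clf swn, with medians of 1.53 and -0.16 on the log2 scale beside -0.02 and 0.05 for all genes. The genes up in siFIE beside the members were JAZ1 (3.04-fold), JAZ10 (20.6-fold), the biosynthesis gene OPR3 (2.16-fold), the vegetative storage protein genes VSP1 (2.75-fold) and VSP2 (2.35-fold), the defence peptides PDF1.2 and THI2.1 (9.90- and 27.9-fold) and TPS03 (3.96-fold). PDF1.2 gave 4595, 684 and 778 in the siFIE pools, and without the first pool, here the highest, its fold was 5.36. JAZ10, PDF1.2 and THI2.1 were also up in clf swn, by 5.30-, 20.5- and 5.17-fold. The early biosynthesis genes were not called in siFIE. LOX2, which makes the hydroperoxide from which jasmonate starts, gave 53640.4, 47568 and 51409 in Col, 52791, 54203 and 58639.9 in siFIE and 2062, 2818 and 2904 in clf swn. AOS, the next enzyme, gave 10986, 10682 and 11819 in Col, 6293, 8265 and 7472 in siFIE and 1092, 1102 and 1070.2 in clf swn. LOX2, AOS and AOC1 were called down in clf swn. The first siFIE pool was the lowest of the siFIE pools for 13 of the 18 genes.

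**Figure D2:**
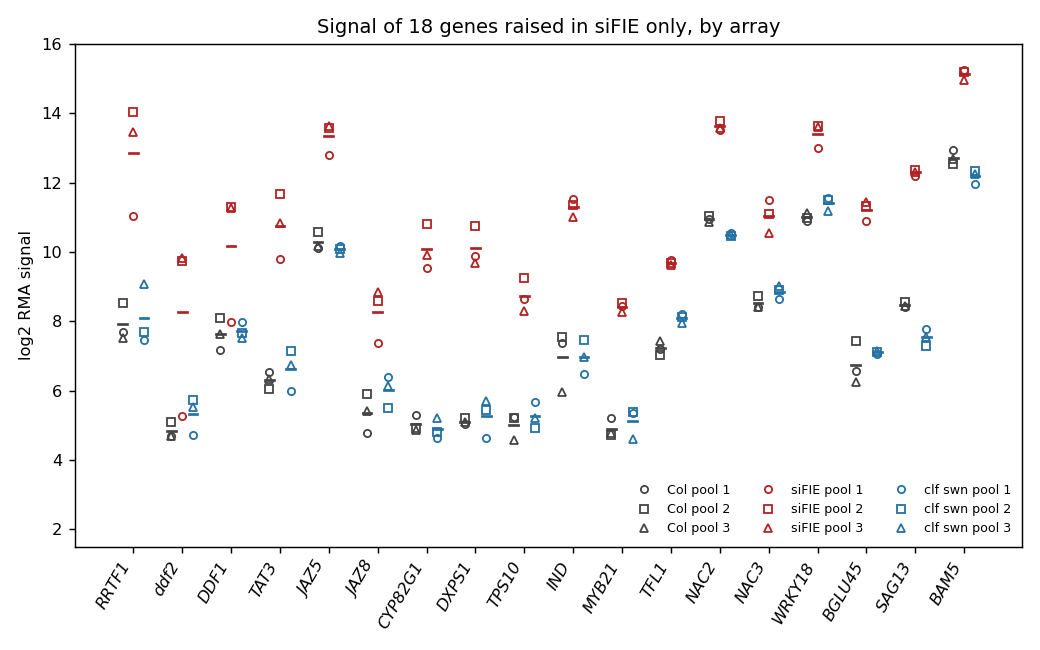
Log2 RMA signal (y axis) of 18 of the genes raised in siFIE only in each of the 9 arrays, with Col in grey, siFIE in red and clf swn in blue, the pools by symbol and the mean of each genotype as a bar. The siFIE pools lie close together for NAC2, SAG13 and BAM5, and the first siFIE pool lies far under the others for RRTF1, ddf2 and DDF1.

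Transcription factors of the AP2/ERF family had the largest median gap between the siFIE pools of the 10 functional sets described here. RRTF1, a redox responsive factor that wounding and jasmonate induce, gave 209, 371 and 185 in Col, 2118, 16704 and 11347 in siFIE and 177, 208 and 542 in clf swn, a 30.4-fold difference. ddf2 and DDF1 are related factors of the DREB branch that serves the response to salt and cold. The signal of ddf2 was 25.9, 33.9 and 26.01 in Col, 38.8, 855 and 900.2 in siFIE and 26.4, 53.2 and 46.4 in clf swn. That of DDF1 was 143, 276 and 197 in Col, 254, 2504 and 2475 in siFIE and 251, 201 and 183 in clf swn. The first siFIE pool was near the Col level for ddf2 and within the Col range for DDF1, so the 10.9- and 5.87-fold differences rest on the other pools. TDR1 gave 44.3, 62.9 and 64.4 in Col, 159.8, 281 and 419.9 in siFIE and 31.5, 56.7 and 42.2 in clf swn, or 4.72-fold. The signal of RAP2.6, an ERF of stress responses, was 227, 267 and 224 in Col, 917, 859 and 1363 in siFIE and 151, 137 and 175 in clf swn, or 4.30-fold, and ERF110 differed 8.49-fold. TDR1 was the gene in which no probe rose by more than 1 on the log2 scale before background correction. A set of 7 further factors, WRKY18, WRKY62, WRKY75, NAC2, NAC3, MYB108 and BHLH92, differed by 4.11- to 6.38-fold, while MYB21 and IND, which belong to the MYB and bHLH families too, are described with the flower and fruit. WRKY18, a regulator of defence, gave 1897, 2032 and 2221 in Col, 8233, 12711 and 12480.4 in siFIE and 3035, 2911 and 2323 in clf swn. WRKY75 (4.11-fold), known from phosphate starvation and senescence, had 3905, 2143 and 2412 in clf swn and so lay just inside the limit of 1 there, and WRKY62 (4.54-fold) and the Botrytis resistance factor MYB108 (4.65-fold) were at most 659 and 1731 in siFIE. For BHLH92 the siFIE pools gave 129, 649.8 and 356.

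The neighbouring genes NAC3 and NAC2 were both raised in siFIE. NAC3 acts in the jasmonate and abscisic acid responses, and both encode factors of the NAC family. NAC3 gave 341, 424 and 338 in Col, 2893, 2187 and 1492 in siFIE and 399, 479 and 520.0 in clf swn. NAC2 gave 1978, 2102 and 1859.8 in Col, 11679, 14057 and 12216 in siFIE and 1484, 1395 and 1432 in clf swn. The siFIE pools were above all others for both. The folds were 5.78 and 6.38, and no array gene lies between them in the order of the loci. Both also carry a peak of FIE-HA with H3K27me3 over the gene body in the peak lists, and they were the only members whose listed peak sequence held GAGAGA or its reverse complement TCTCTC. They are shown for that reason, with the matched letters in capitals and the build TAIR9, as listed and with the strand not given. Of the NAC2 peak at chr3:5243570-5245070 letters 18 to 47 are shown, and of the NAC3 peak at chr3:5234620-5235880 letters 203 to 322.
NAC2: aaataGAGAGAatcatctGAGAGAgtagta
NAC3: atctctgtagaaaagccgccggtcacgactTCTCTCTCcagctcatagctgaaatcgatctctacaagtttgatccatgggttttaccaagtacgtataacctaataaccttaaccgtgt
The motif was searched on both strands in the first 399 letters held of each peak, where overlapping matches count, so that the run of NAC3 holds 2 and the NAC2 peak has 2 apart. A match is a description of the letters. Of all 706 peaks of that list held, 322 (45.6%) had GAGAGA, against 2 of the 11 peaks over members, and 130 (18.4%) held AAACCCTA, the telobox, against 0 of the 11.

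Regulators of flower, fruit and meristem made up 5 of the members. IND, a bHLH factor that sets the line along which the fruit opens, gave 167, 188 and 62.2 in Col, 2951, 2638 and 2069 in siFIE and 88.4, 175 and 126 in clf swn, a 20.2-fold difference, and clf swn and Col had the same mean within rounding (log2 0.00). MYB21, a factor of stamen growth under jasmonate, gave 36.7, 26.2 and 27.4 in Col, 347, 371 and 309.6 in siFIE and 41.3, 41.3 and 24.5 in clf swn, or 11.5-fold. TFL1, which keeps the inflorescence meristem indeterminate, gave 146, 129.6 and 174 in Col, 869, 818 and 794 in siFIE and 295, 279.9 and 246 in clf swn, or 5.56-fold. TFL1 was higher in each clf swn pool than in each Col pool and still inside the limit (log2 0.88). ZFP2, a zinc finger factor, had 548, 496 and 511 in siFIE and 45.3, 91.4 and 70.2 in Col, and FAF2, of a small family that affects meristem size, had 431, 915 and 930.4 in siFIE and 167, 204 and 159 in Col. No gene of the list of 22 floral organ identity genes is a member.

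Enzymes that cleave or form glucosides, and a protein that binds one of them, made up a set of 6. BGLU45, a beta glucosidase, gave 94.9, 173 and 76.6 in Col, 1910.1, 2544 and 2803 in siFIE and 132, 139 and 141 in clf swn, a 22.1-fold difference, and its relatives BGLU27 and BGLU32 differed 11.1- and 5.54-fold. MBP2 encodes a myrosinase-binding protein of the glucosinolate defence and gave 1116, 1078 and 727 in Col, 8068, 9808 and 10442 in siFIE and 1436, 1845 and 1431 in clf swn. The glucosyltransferase genes UGT85A3 and UGT85A7 had 1023, 1074 and 1219.7 and 1679, 1617 and 1808 in siFIE, 10.2- and 5.89-fold above Col. For all of these the siFIE pools were above those of Col and clf swn. The probes of BGLU27 ranged from 0.57 to 3.34 on the log2 scale before background correction, so that its value depends on the probe.

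Redox and detoxification genes held 8 members. CYP709B1, a cytochrome P450, gave 47.4, 63.2 and 19.7 in Col, 908, 1612 and 1664 in siFIE and 47.4, 44.5 and 79.1 in clf swn, or 34.5-fold by the deposited RMA signal. From probe signals its fold was 9.52 with normexp and quantile normalization and 5.20 without background correction. MSRB7 and MSRB8 are adjacent genes of methionine sulfoxide reductases, which repair oxidised protein. MSRB7 gave 1092, 1616 and 1106 in Col, 6134, 6931 and 7571 in siFIE and 664, 609.5 and 657 in clf swn, or 5.48-fold. MSRB8 gave 86.9, 97.8 and 114 in Col, 973, 1854 and 2326 in siFIE and 138, 138 and 203 in clf swn, or 16.3-fold. Their shifts in clf swn had opposite signs, at -0.96 and 0.67 on the log2 scale, MSRB7 being the member nearest to the lower limit. Related sequences such as these may share hybridisation on 60-mer probes, which was not tested. AOX1D, an alternative oxidase of the mitochondrion, differed 10.4-fold, the glutathione transferases GSTU3 and GSTU12 10.0- and 4.36-fold, and CYP81D1 and SRG1, a dioxygenase named for senescence, 4.45-fold each.

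Of the lists for senescence and salicylate, 1 gene was a member. SAG13, a dehydrogenase gene that rises in ageing and stressed leaves, gave 344, 374 and 346 in Col, 4702, 5309.7 and 5092 in siFIE and 221, 155 and 188 in clf swn, with close siFIE pools and a 14.2-fold difference. On a list of 9 senescence genes, SAG13 included, 2 were called up in siFIE and 1 down, and in clf swn 1 was up and 3 down. SAG12, the usual marker of leaf ageing, gave 43.2, 58.2 and 46.2 in Col, 50.3, 57.7 and 47.3 in siFIE and 38.9, 80.5 and 40.05 in clf swn, without a call in either mutant. SEN1 was the other gene up in siFIE (3.22-fold) and was down in clf swn. On a list of 15 salicylate and camalexin genes, none of them a member, 4 were called up and 1 down in siFIE (PR2, PAD3, EDS5 and SARD1 up, WRKY70 down), and 0 up and 7 down in clf swn. PR1, the marker of the salicylate response, had 56.8, 54.7 and 68.04 in siFIE and 79.4, 55.5 and 76.9 in Col.

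Receptors and defence proteins among the members were 8. WAKL10, a wall-associated kinase-like protein, gave 86.8, 99.6 and 115 in Col, 1871, 1989 and 1668 in siFIE and 254, 144 and 197 in clf swn, or 18.4-fold, and was also above Col in each clf swn pool (log2 0.95). RLP40, a receptor-like protein, showed the same order with 267, 379 and 219 in Col, 2122, 1996 and 1354 in siFIE and 573, 574 and 482 in clf swn. HR4, a relative of the mildew resistance protein RPW8, gave 1003, 806 and 679 in Col, 4412, 4018 and 4255 in siFIE and 787, 521 and 635 in clf swn, and the lectin receptor kinase gene LECRKA4.1 differed 5.37-fold. BAP1, which restrains cell death, gave 247, 788 and 871 in Col, 2612, 1403 and 3008 in siFIE and 606, 424 and 934 in clf swn, with a wide spread in Col, and was the member nearest to the fold limit (log2 2.01). The kinase gene MAPKKK19 and the methyl esterase genes MES1 and MES5 rose 5.04-, 4.59- and 4.47-fold, and all 3 had clf swn values of 0.88 or more on the log2 scale.

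The genes of the cell wall and of growth differed by 4.32- to 7.70-fold. CESA10, a catalytic subunit of cellulose synthase, gave 163, 226 and 177 in Col, 1425, 1662 and 1256 in siFIE and 183, 189 and 193 in clf swn. The xyloglucan endotransglucosylase genes XTH3, XTH29 and XTH33 differed 6.07-, 5.28- and 4.56-fold, and 1 probe of XTH3 did not rise at all (-0.02) where another rose by 1.65 on the log2 scale before background correction. FRB1, which is needed for cells to adhere, gave 1582, 2999 and 3546 in siFIE and 570.4, 541 and 677 in Col, and PSK2, a precursor of the growth peptide phytosulfokine, 2104, 3055 and 4217 and 569, 727 and 747. LLG2, a GPI-anchored partner of receptor kinases, differed 6.65-fold.

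Genes of metabolism and transport made up a set of 9. BAM5, a beta amylase, gave 7859, 5979 and 6545 in Col, 39329.5, 37071 and 32109 in siFIE and 3969, 5214 and 4837 in clf swn, or 5.34-fold. UMAMIT29, an amino acid exporter, gave 2432, 2627 and 2225 in Col, 11738, 12055 and 11821 in siFIE and 4427, 3324 and 2809.9 in clf swn, or 4.90-fold. In both, the siFIE pools differed little among themselves beside their distance from Col. TET9, a tetraspanin, had 440.4, 984 and 964 in siFIE and 93.5, 62.3 and 85.3 in Col, and TIM17-1, of the mitochondrial import channel, 1083, 1174 and 1369.9 and 155, 98.3 and 149.7. PHT3;2 (4.65-fold, a mitochondrial phosphate carrier), PAP20 (5.70-fold, a purple acid phosphatase), PP2-B13 (5.52-fold, of the phloem protein family) and PYL6 (4.25-fold, an abscisic acid receptor) belong to the set as well, as does SAG13 described above. Together the 10 functional sets hold 63 of the 64 members with a symbol, and they were drawn after the values had been seen, the remaining one being the zinc finger factor IDD16 (533, 529 and 491 in Col, 2538, 2852 and 3004 in siFIE and 645, 735 and 854 in clf swn).

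The members were uneven across the siFIE pools, with the first pool on the low side, which was so for the genes raised in both mutants too. The median SD of log2 values over the siFIE pools was 0.30 for members and 0.18 for all genes, but the members were also above all genes in Col (0.25 against 0.17) and in clf swn (0.28 against 0.17). The first siFIE pool was the lowest of the siFIE pools for 72 members (62.1%, against 37.4% of all genes), the second for 18 and the third for 26. It was also the lowest for 145 of the 215 genes raised in both mutants (67.4%), 18 of the 22 floral organ identity genes and 6 of the 8 shoot meristem markers. The lists differed, with 10 of 20 anther and pollen markers and 6 of 11 seed markers lowest in that pool. It was the lowest for 5 of 14 flowering time genes, 4 of 10 root markers and 1 of 6 leaf markers. It was more than 1 on the log2 scale under the mean of the other pools for 23 members (19.8%, against 1.03% of all genes and 6.98% of the genes raised in both mutants) and above it by as much for none, where 0.695% of all genes were. Those 23 were RRTF1, ddf2, DDF1 and TDR1, JAZ7, JAZ8 and TAT3, MYB108 and BHLH92, MSRB8, TET9, FRB1, FAF2 and 10 loci without a symbol, of which AT2G36110 had 103, 2340.3 and 224 in siFIE and was the only member that limma did not call. The gap was 2.02- to 22.6-fold, and for 19 of the 23 the first pool was still more than 1 on the log2 scale above the Col mean. FIE itself was lowest in that pool, at 244, 281 and 321. By set, the median difference of the first pool from the mean of the others was -1.90 for the AP2/ERF factors and -1.40 for the jasmonate genes, and -0.02 for receptors and defence and 0.11 for flower, fruit and meristem. Over all members the difference of the first siFIE pool from Col passed 2 on the log2 scale for 88 genes, that of the second for 111 and that of the third for 112. Leaving out the first siFIE pool moved the fold of 10 members by more than 1.5 times, all upward (RRTF1 to 56.8, ddf2 to 30.9, DDF1 to 12.6, AT1G33760 to 11.5, AT2G36110 to 11.3, AT5G64870 to 10.3, AT1G76640 to 10.1, JAZ7 to 8.96, BHLH92 to 7.91 and AT1G32970 to 7.34). Without the second pool RRTF1 was at 20.2, ddf2 at 6.59 and AT2G36110 at 2.38, and without the third ddf2 was at 6.42. What distinguished the first pool was not tested, and its plants, RNA and array cannot be told apart. Its array had a median probe signal of 1319 before normalization, against 2168 and 1709 for the other siFIE pools. That was not particular to siFIE, since the first array was also the dimmest in Col (1213, against 2370 and 1386). The same held in clf swn (1279, against 1518 and 1589).

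**Figure D3:**
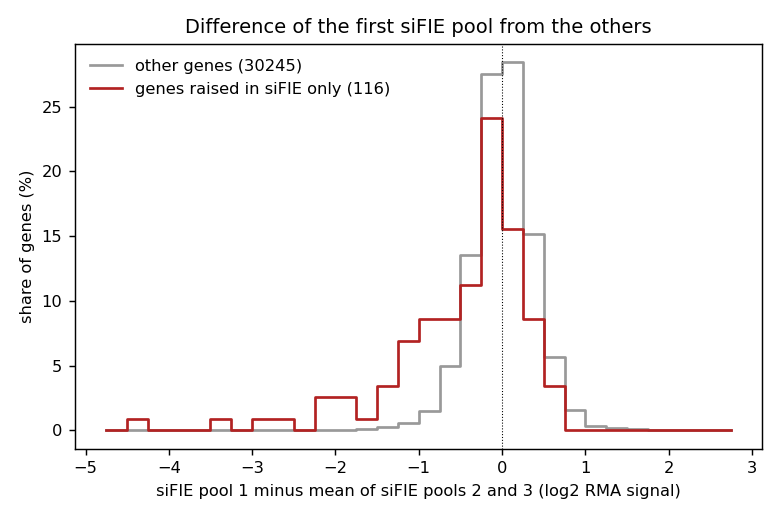
Share of genes (y axis) by the log2 signal of the first siFIE pool minus the mean of the other siFIE pools (x axis, steps of 0.25), for the 116 genes raised in siFIE only (red) and all other genes (grey). The red line has a tail to the left, in which 23 genes lie under -1, and no gene above 1.

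A smaller share of the members than of the genes raised in both mutants stood in the PRC2 peak lists, which is a description of counts without a test. The study mapped FIE-HA, a tagged FIE that complements a fie mutant, and H3K27me3 by ChIP-seq in C24 seedlings, and its lists of peaks and loci were set against the array genes. A peak with FIE-HA and H3K27me3 lay over the gene body of 10 of the 116 members (8.62%), 51 of the 215 genes raised in both mutants (23.7%) and 673 of all 30361 genes (2.22%). Any FIE-HA peak lay over 17 members (14.7%), 57 genes raised in both (26.5%) and 1201 of all genes (3.96%). These counts include peaks with FIE-HA only, most of which the study judged likely to be false positives after ChIP-qPCR. The list of loci with H3K27me3 came from the study's supplementary gene lists for its arrays, not from its H3K27me3 peak list. Whether its loci are those of the C24 peaks was not checked. It was at hand for loci up to AT2G42410, a range with 59 members. Of these 23 (39.0%) were listed, against 48 of 66 genes raised in both (72.7%) and 1985 of 11949 genes in all (16.6%). The listed members include BGLU45, TAT3, TPS10, WAKL10, AOX1D, UGT85A7 and GSTU12, none of which had a FIE-HA peak with H3K27me3. UGT85A7 did have a FIE-HA peak over the gene body, outside the list of peaks with both. The peaks come from C24 and the arrays from Col or from plants of unsettled ecotype.

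**Figure D4:**
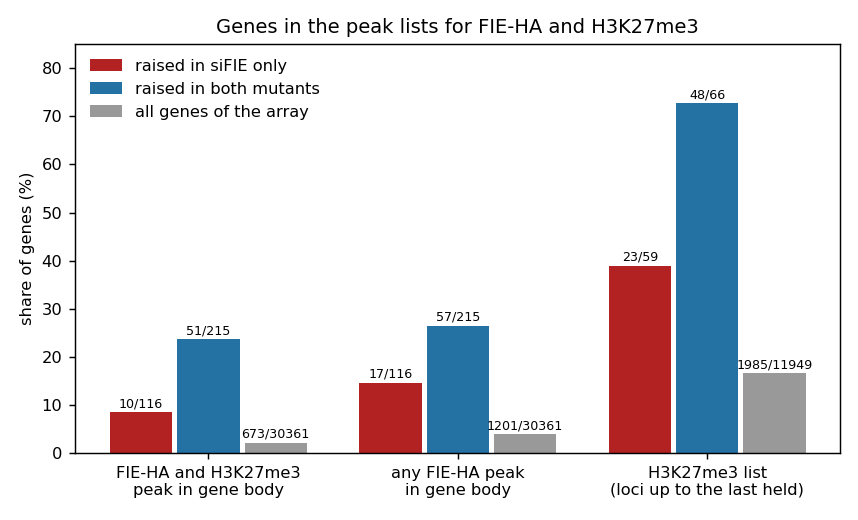
Share of genes (y axis) with a FIE-HA and H3K27me3 peak over the gene body, with any FIE-HA peak there, and on the part of the H3K27me3 list held, for genes raised in siFIE only (red), genes raised in both mutants (blue) and all array genes (grey), with counts above the bars. The red bars, at 8.62, 14.7 and 39.0%, lie between the grey and the blue ones.

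The 10 members with both FIE-HA and H3K27me3 over the gene body were NAC2, NAC3, WRKY62, TDR1, IDD16, which has 2 such peaks, AT1G33760, AT2G03020, AT2G36770, AT4G00870 and AT4G29610. The 5 with a symbol are all transcription factors, of the WRKY, NAC, AP2/ERF and zinc finger families, and the loci without a symbol are given no role. Factors are common among the 64 members with a symbol. The AP2/ERF set holds 6 and that of WRKY, NAC, MYB and bHLH factors 7, beside MYB21, IND, ZFP2 and IDD16. Nothing is read from so few genes. For the 10 genes the folds were 4.1 to 12.1, the differences in clf swn -0.46 to 0.88 on the log2 scale with a median of 0.11, and the median log2 difference in siFIE 2.44, beside 2.59 for the other 106 members. Members on the H3K27me3 list had a median difference in siFIE of 2.67 and those in the same range but not on it of 2.51. AT1G33760 gave 31.7, 49.8 and 45.8 in Col, 103, 577 and 396 in siFIE and 48.7, 41.3 and 49.6 in clf swn. For AT2G03020 the signal was 189, 205 and 198 in Col, 743, 1058 and 1087 in siFIE and 309, 297 and 519.6 in clf swn. That of AT2G36770 was 70.4, 162 and 139.7 in Col, 553, 692 and 684 in siFIE and 101, 118 and 155 in clf swn. In these 3 loci the siFIE pools lay above all others. AT4G29610 gave 307, 258 and 504 in Col, 872, 1797 and 1755 in siFIE and 249, 262 and 372 in clf swn. AT1G33760 and AT4G29610 are among the genes with a low first siFIE pool.

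Neighbouring members were found in 3 places, each without an array gene between. Besides NAC3 with NAC2 and MSRB7 with MSRB8 these were AT1G51270 and AT1G51280. AT1G51270 gave 854, 914 and 758 in Col, 4978, 5158 and 6536 in siFIE and 1649.9, 1520.1 and 1124 in clf swn. AT1G51280 gave 1900.5, 2023 and 1601 in Col, 9665, 10482 and 12918 in siFIE and 3255, 3513 and 2897 in clf swn. The folds of that pair were 6.57 and 5.97, and its pools kept the same order in siFIE. AT1G51280 is the member that is not in the RefSeq annotation of TAIR10.1. Whether the pair are separate genes was not tested.

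The size of the change depended on how signal was taken from the probes. The 269 probes of the members (2 for 79 genes and 3 for 37) rose by more than 1 on the log2 scale in 229 cases before background correction, all probes did so in 81 genes, and 35 genes had a probe that did not. With the normexp background correction and quantile normalization, all 116 genes stayed more than 1 above Col, with a median of 1.96 in place of 2.56, and 55 met the full rule. Without background correction the median was 1.62, 106 genes were above 1, the lowest was at 0.80, and 31 met the rule. In every one of the probe settings all 116 genes stayed within 1 of Col in clf swn and above 8 in siFIE. The rule had chosen the members for both limits on the same arrays, so this outcome was nearly set in advance. The 31 include AT1G11070, CYP709B1, CYP82G1, DXPS1, RRTF1, TAT3, IND, BGLU45, WAKL10, NAC2, WRKY18, JAZ5 and BAM5, while TPS10, MYB21, GSTU3, TFL1, JAZ7 and JAZ8 met it in none of the 3 settings.

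**Figure D5:**
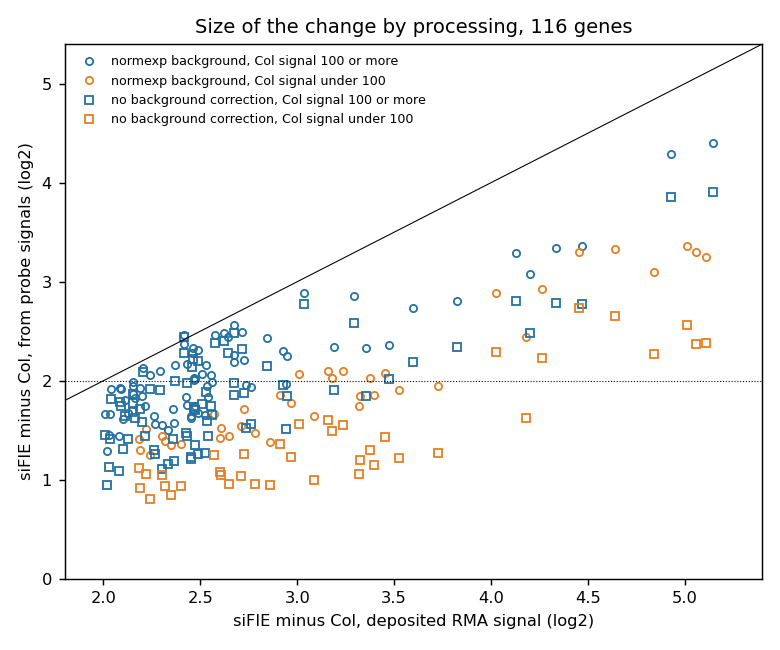
Log2 difference of siFIE from Col computed from probe signals (y axis) against that of the deposited RMA signal (x axis) for the 116 genes, with normexp background (circles) and without background correction (squares), in orange for genes with a Col signal under 100 and in blue for the others. The solid line is equality and the dotted line the limit of 2. Without background correction the difference was lower by a median of 1.72 for the orange genes and of 0.79 for the blue ones.

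At the limits, the members just inside were BAP1 (2.01), AT1G57630 (2.02) and FAF2 (2.03) for the difference in siFIE, and just outside were AT2G28120, AT3G55700 and AT4G33370 at 2.00 (unrounded under 2), 2.00 and 1.98. For the upper limit in clf swn, AT3G46700 (0.99), WRKY75 (0.97) and MAPKKK19 (0.95) were inside and AIR1 (1.03), AT1G73800 (1.03) and DELTA-VPE (1.04) outside. DELTA-VPE, a seed coat protease, had a mean of 849 in siFIE, 26.1 in Col and 55.4 in clf swn. For the lower limit, MSRB7 (-0.96), AT3G23550 (-0.94) and SAG13 (-0.93) were inside and DIN11 (-1.05), AT2G32140 (-1.07) and FRO1 (-1.10) outside. For the siFIE level, AT1G12540 (8.04), AT1G21550 (8.04) and TDR1 (8.06) were inside and CML41 (7.97), CXE17 (7.95) and AT2G14290 (7.90) outside.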

How the data were processed

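The authors deposited, for each of 9 Cy3-labelled NimbleGen arrays, the unnormalized intensity of 72000 probes from NimbleScan 2.4.31. They also deposited a linear RMA intensity for each gene, named RMA in the submitters' processing notes with no software version in the sources used here. The 30361 sequence IDs, annotated by TAIR6, were each taken as 1 gene (2 probes for 19073 and 3 for 11283). The RMA values were used as deposited and set on the log2 scale, and the rule was applied to means of 3 arrays. The signal table of the series held the same values. The medians of 1116 to 1169 per array are of RMA values, while those of the unnormalized probes ran from 1213 (Col 1) to 2370 (Col 2). The r of 0.991 to 0.994 within genotypes is over all genes. Neither measures the precision of a single gene, which the number of arrays limits. The pools are separate sets of plants.

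For the background shares, limma 3.58.1 in R 4.3.3 fitted 3 group means over all 9 arrays, with Benjamini-Hochberg adjustment over all genes, an adjusted p under 0.05 and more than 2-fold as a call. The step was tested on simulated data. Summaries used Python 3.11.15, numpy 2.4.6 and pandas 2.3.3. Probe signals were also processed with normexp (offset 50) or no background correction, and with quantile normalization or median scaling. Symbols come from RefSeq (TAIR10.1), and no coordinates were taken from it. Of 174 genes on 15 lists 167 were used, since the symbols of the other 7 were not matched. Peak lists and peak sequences come from the study's tables, as far as held, mapped on TAIR9.

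Genes named are the 30 largest differences, members on the lists, with a FIE-HA and H3K27me3 peak, next to another member (at most 2 array genes between) or nearest to a limit. Other members, such as WRKY18, TFL1 and BAM5, were named after their values were seen, as were the 10 functional sets. The members and lists were chosen with earlier results of these data known. Columns of the study's own comparisons were not used, apart from the H3K27me3 loci listed with them.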

Additional observations from a re-analysis of the deposited data

How the results depend on the processing

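The 52 members named by rule kept a positive difference of siFIE from Col in all 728 values, 724 of them above 1. The values come from the probe settings, the series table, quantile-normalized RMA values and each array left out. The rule chose the members for this difference on the same arrays, so its sign was nearly set in advance. The series table and the runs without a clf swn array return the main value itself. The limits and the probe processing decided which genes met the rule. From probe signals 66 genes met it with normexp and quantile normalization (55 of the 116 kept), 62 with normexp and median scaling (49 kept) and 48 with quantile normalization and no background correction (31 kept). A limit of 0.5 in clf swn gave 72, and of 3 in siFIE 34. Leaving out 1 array gave 104 to 142 genes, with 98 to 113 of the members kept, and 81 members kept in every case. Requiring each siFIE pool to pass 2, added after seeing the data, kept 83. The 1370 genes called up and 968 down in siFIE became 939 and 612 from probe signals with normexp and quantile normalization, 863 and 640 from probe signals with normexp and median scaling, and 683 and 443 from probe signals with quantile normalization and no background correction. Without a fold threshold they were 3102 and 3047. For clf swn, 2666 and 3896 became 1947 and 2886 from probe signals with normexp and quantile normalization, 1571 and 2364 from probe signals without background correction, and 7336 and 6887 without a fold threshold. With all FIE-HA peaks, 17 in place of 10 members had a peak over the gene body. The study judged most peaks with FIE-HA only to be likely false positives. Same-numbered arrays mostly did not deviate together (r of -0.16 to 0.17, 1 of 9 pairs over 0.1), and the main fit used no pairing. With 3 arrays per genotype a weak pairing could be missed. With the replicate number as a block, 1361 genes were up and 956 down in siFIE and 2664 up and 3878 down in clf swn. The search of promoters for GAGAGA was not run, since no promoter sequence was used here. The dim Col signal of the 39 members under 100 limits how well their fold is known.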

Other observations

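The members were spread unevenly over the chromosomes, as a description of counts. Chromosome 1 held 43 of the 116 genes (37.1%, against 24.9% of the array), chromosome 2 held 19 (16.4% against 16.4%), chromosome 3 held 22 (19.0% against 20.1%), chromosome 4 held 13 (11.2% against 15.4%) and chromosome 5 held 19 (16.4% against 22.7%). As described, 3 pairs of members were neighbours, 1 of them on chromosome 1.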
